A study of Mus musculus with 30 samples.

Results

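Transcripts of 9 small leucine-rich proteoglycan genes (Dcn, Bgn, Fmod, Lum, Omd, Ogn, Prelp, Aspn and Podn) were examined in primary mouse tail-tendon fibroblasts. The 9 genes were taken by name from the 35972 genes listed in both deposited RNA tables, and all 9 were found in both. Sites of changed chromatin signal that the authors had annotated to any of these genes were added from 5 site lists. The cells are labelled wildtype in all 30 libraries of the study, and treatments were given in medium with 0.1% serum. RNA was measured in 3 libraries each of the solvent DMSO, of blebbistatin at 10 µM, which blocks non-muscle myosin II, and of Y27632 at 30 µM, a kinase inhibitor that lowers contractility. Chromatin was profiled by ATAC, which marks accessible DNA, in 9 libraries with these treatments. A further 12 libraries had neither drug, blebbistatin alone, doxycycline at 10 ng/mL alone, or both. The labels do not state the assay of these 12 libraries or what doxycycline induces. Nor do they state how long any treatment lasted, or whether libraries of a group came from separate animals or cultures. The p-values therefore measure only the spread between the libraries at hand.

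Small leucine-rich proteoglycans are secreted proteins whose curved chain of leucine-rich repeats binds collagen, and most carry chains of chondroitin, dermatan or keratan sulfate. In tendon they sit along the collagen fibrils and govern how fibrils grow in width and join, with decorin and biglycan belonging to one class of the family, fibromodulin and lumican to another. Several also bind growth factors of the TGF-β group, so they tie the structure of the matrix to signalling. The design asks how loss of actomyosin tension, sensed partly through the co-regulators Yap and Taz, bears on the transcripts of matrix genes.

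The family did not move as a block. With blebbistatin, Lum, Dcn, Fmod and Aspn rose while Omd, Ogn, Prelp and Bgn fell. With Y27632, Lum, Aspn, Fmod, Omd, Ogn and Dcn rose while Podn and Prelp fell. Omd and Ogn, neighbours on chromosome 13, fell with blebbistatin and rose with Y27632, the rise of Omd being lost with DESeq2 (adjusted p = 0.102) and when any of 5 of the 6 libraries was left out. Of the 9 genes, 8 had an adjusted p under 0.05 with blebbistatin (limma), against 53.0% of all 14882 genes tested, and 8 did so with Y27632, against 35.9% of 14833. Genes with many reads can be called at small changes, such as Bgn at -0.15 with blebbistatin and Prelp at -0.09 with Y27632. The shares over all genes include genes averaging as few as 10 normalised counts. With blebbistatin, 4 of the 9 were called higher and 4 lower, beside 26.1% and 26.9% of all genes. With Y27632, 6 were called higher and 2 lower, beside 18.1% and 17.8%. Leaving out 1 library brought the 8 called with Y27632 to 6 or 7, through Omd and Prelp. Their median log2 change was 0.13 with blebbistatin and 0.31 with Y27632, where all genes tested had medians of 0.0021 and 0.0040. The median absolute log2 change of the 9 was 0.28 with blebbistatin, beside 0.22 for all genes, and 0.39 with Y27632, beside 0.15 for all genes.

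**Figure D1:**
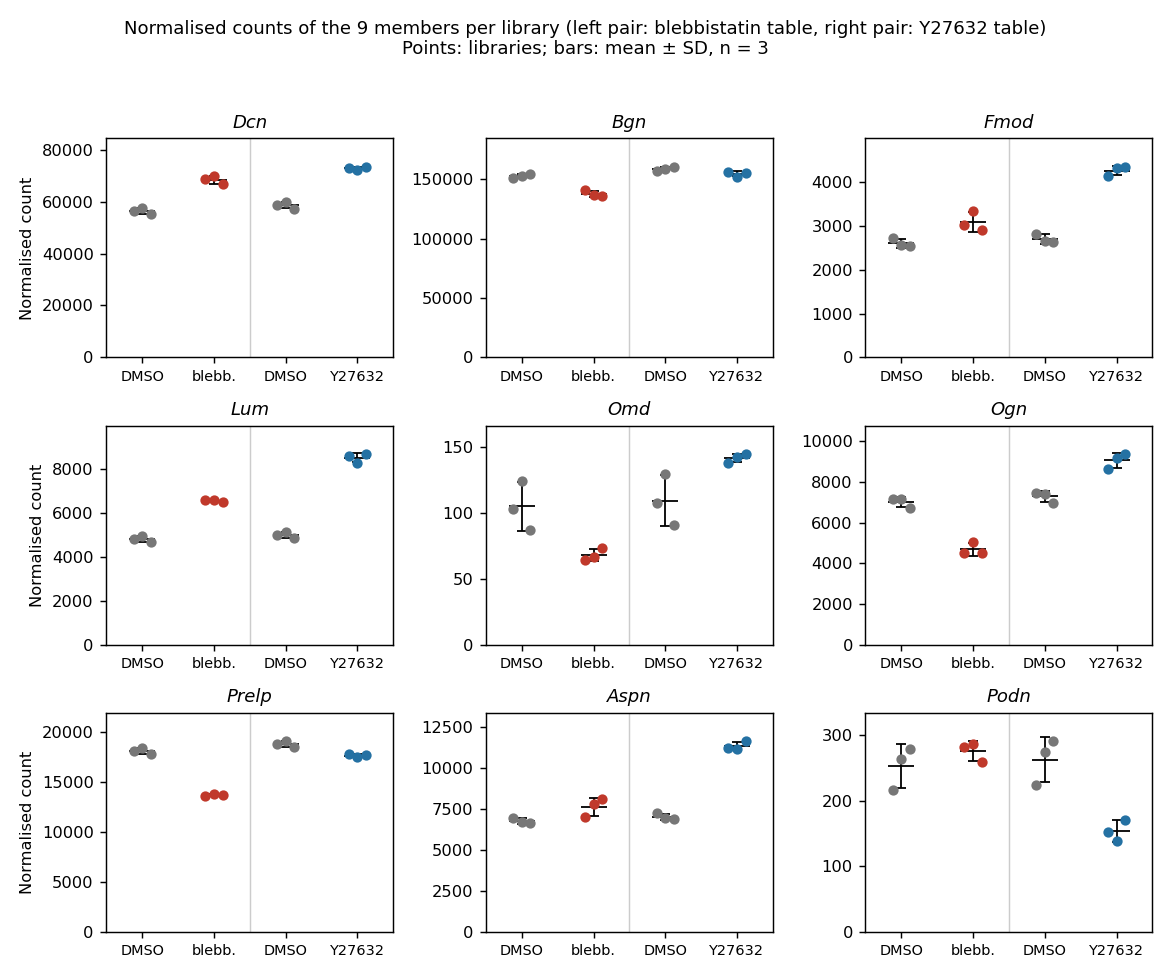
Normalised counts (y axis, linear from 0) of the 9 genes in each RNA library. Points are libraries and bars are the mean ± SD of 3. The left pair of groups comes from the blebbistatin table and the right pair from the Y27632 table, which were scaled separately. Ogn lies below its DMSO libraries with blebbistatin and above them with Y27632, and Podn lies below its DMSO libraries with Y27632.

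Values are normalised counts, meaning reads in a gene divided by a size factor of the library. The total of reads in genes was 23375386 to 37061737 per library. Levels are not compared between genes, because no transcript lengths were used. The labelled cell type was checked by its markers: all 7 tendon fibroblast markers were detected in every group, among them Col1a1, the main tendon collagen chain, at a mean of 10500, 9337 and 9812 CPM (reads scaled to 1 common library total) with DMSO, blebbistatin and Y27632, and Scx, a tendon transcription factor, at 2.36, 2.53 and 2.90. The summed tendon list ran from 11720 to 12540 CPM with DMSO, from 10710 to 11910 with blebbistatin and from 11430 to 12050 with Y27632. Most of this sum was Col1a1. All macrophage and leukocyte, mural and Schwann cell markers were also detected in every group, so detection alone does not tell cell types apart. Of the 7, 2 were called higher and 3 lower with blebbistatin, and 3 higher and 0 lower with Y27632 (limma). Among all genes tested, 53.0% and 35.9% were called. Pdgfra, in the tendon list, had means of 327, 519 and 496 CPM with DMSO, blebbistatin and Y27632. Summed macrophage and leukocyte markers ran from 217 to 239 with DMSO, 326 to 364 with blebbistatin and 315 to 356 with Y27632, and 5 of the 6 were called higher under each inhibitor. Most of that sum was Lyz2, at 167, 254 and 259. Summed fat markers ran from 225 to 235 with DMSO, from 474 to 510 with blebbistatin and from 304 to 352 with Y27632, nearly all from Lpl, while the adipocyte genes Adipoq and Plin1 were at most 0.026 in each group. Schwann cell, endothelial, and chondrocyte and osteoblast sums stayed at or below 15, 7.80 and 9.07 CPM and were each lower with DMSO than with blebbistatin. Mural markers reached at most 9.07, skin epithelium 0.740 and skeletal muscle 1.28, with Myod1, Myf5 and Ckm at 0 throughout. The part of these other cells in the changes below was not tested, and in bulk RNA fewer cells of a type and less RNA per cell cannot be told apart. Reads assigned to the 9 genes made up 0.911% to 0.924% of all reads in genes with DMSO, 0.938% to 0.956% with blebbistatin and 0.986% to 1.005% with Y27632.

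Of the 9 genes, 7 lie in clusters with other members of the family (GRCm38.p6, positions from the RefSeq gene table). Prelp and Fmod share a 151.1 kb stretch of chromosome 1 with Optc, Dcn and Lum a 202.4 kb stretch of chromosome 10 with Kera and Epyc, and Aspn, Omd and Ogn a 119.7 kb stretch of chromosome 13 with Ecm2. Bgn is on the X chromosome and Podn on chromosome 4. The chromosome 13 genes all lie within the span of Cenpp, a centromere protein gene with 85 to 163 reads per library, and no strand setting is given for the counting. Its log2 change was -0.01 with blebbistatin and 0.19 with Y27632, neither past the threshold (limma, adjusted p = 0.955 and 0.249).

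Promoters of the 3 neighbours on chromosome 13 are shown because Omd and Ogn went in opposite directions under the inhibitors while Aspn, next to them, rose under both, and that of Podn because it was higher with blebbistatin than with Y27632. Each is the 250 bases before the transcription start in RefSeq (GRCm38.p6), 5′ to 3′ on the strand of the gene, and capitals mark GGAATG, the core bound by TEAD factors, the DNA-binding partners of Yap and Taz. Aspn is at chr13:49544193-49544442 (+), Omd at chr13:49582212-49582461 (+), Ogn at chr13:49607765-49608014 (+) and Podn, from the outer of its 2 listed starts, at chr4:108031955-108032204 (-).
Aspn: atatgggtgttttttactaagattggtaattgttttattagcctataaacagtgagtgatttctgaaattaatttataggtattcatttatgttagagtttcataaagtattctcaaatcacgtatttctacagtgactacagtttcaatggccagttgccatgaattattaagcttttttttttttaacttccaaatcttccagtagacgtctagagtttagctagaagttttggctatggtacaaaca
Omd: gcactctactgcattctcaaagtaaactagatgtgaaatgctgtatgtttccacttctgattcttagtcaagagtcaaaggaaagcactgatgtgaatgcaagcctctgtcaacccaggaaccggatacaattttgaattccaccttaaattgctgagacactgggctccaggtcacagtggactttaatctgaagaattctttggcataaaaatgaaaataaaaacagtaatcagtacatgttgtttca
Ogn: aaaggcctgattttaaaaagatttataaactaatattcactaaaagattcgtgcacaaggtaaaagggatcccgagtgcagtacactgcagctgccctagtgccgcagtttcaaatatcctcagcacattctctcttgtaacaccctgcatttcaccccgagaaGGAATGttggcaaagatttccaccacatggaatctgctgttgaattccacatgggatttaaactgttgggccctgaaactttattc
Podn: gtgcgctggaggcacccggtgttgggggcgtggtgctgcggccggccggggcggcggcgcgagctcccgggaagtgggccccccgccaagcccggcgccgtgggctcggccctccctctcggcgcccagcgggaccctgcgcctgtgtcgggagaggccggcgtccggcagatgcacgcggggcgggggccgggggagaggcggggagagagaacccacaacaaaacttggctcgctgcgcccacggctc
The table held a promoter for 7 of the 9 genes (Prelp, Fmod, Podn, Aspn, Omd, Ogn and Bgn). That of Prelp, at chr1:133921402-133921651 (-), lies inside the span of the gene, which reaches to position 133930102. Both strands were searched for GGAATG, for its longer form AGGAATGT, which contains it, for the AP-1 motif TGANTCA, for the CArG box of serum response factor and for TATAAA. Among the 7 genes, GGAATG was found in Ogn alone, at position -86 from the start, within AGGAATGT, where 12.6% of all 32851 promoters hold the core and 1.10% the longer form. No TGANTCA and no CArG box was found in the 7, where 6.75% and 1.47% of all promoters hold one. TATAAA was found in Aspn and Ogn, and in 12.4% of all promoters. These are matches of letters in a short window and say nothing of binding. The base composition differed widely: G and C made up 30% of the Aspn promoter, 38.4% of Omd, 42% of Ogn, 51.2% of Fmod, 55.6% of Prelp and 64.4% of Bgn, and 78% and 64% at the 2 starts of Podn, beside a median of 52.4% over all promoters.

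Dcn encodes decorin, which carries 1 chondroitin or dermatan sulfate chain and restrains fibril width. Its normalised counts were 56520, 57630 and 55200 with DMSO and 68671, 69882 and 66891 with blebbistatin. In the Y27632 table they were 58759, 59828 and 57363 with DMSO and 73092, 72080 and 73353 with Y27632. All treated libraries of both kinds lay above all DMSO libraries, as did the treated libraries of 30.0% of genes with blebbistatin and of 24.4% with Y27632. Dcn rose by 0.28 on the log2 scale with blebbistatin (SE 0.032, limma adjusted p = 1.18e-05) and by 0.31 with Y27632 (SE 0.031, adjusted p = 5.9e-06), which is 21.3% and 24.2%. Compared directly, blebbistatin minus Y27632 came to -0.02 with a 95% interval from -0.08 to 0.04 (edgeR, adjusted p = 0.528), so a gap of more than 0.08 in either direction lies outside that interval.

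Bgn encodes biglycan, the closest relative of decorin, which in its usual form carries a pair of chains and in free form can signal through Toll-like receptors. Its counts were 151144, 152866 and 154140 with DMSO and 140462, 136299 and 135651 with blebbistatin. With Y27632 they were 156199, 152140 and 155276, beside 157130, 158695 and 160181 for DMSO in that table. Each inhibitor left every treated library below every DMSO library, by a wide gap with blebbistatin and a narrow one with Y27632, as did 30.2% and 23.7% of all genes. Bgn fell by 0.15 on the log2 scale with blebbistatin (SE 0.032, limma adjusted p = 0.00167). The change with Y27632, -0.04 with a 95% interval from -0.11 to 0.03, did not pass the threshold (adjusted p = 0.396). Between the inhibitors Bgn was lower with blebbistatin by -0.10 (edgeR, adjusted p = 0.00481). Against DMSO, Dcn and Bgn, which have related proteins, had log2 changes of opposite sign under blebbistatin (0.28 and -0.15).

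Aspn encodes asporin, the third gene of that class, which carries a run of aspartates in place of a glycosaminoglycan chain and binds collagen and TGF-β. It had counts of 6954, 6697 and 6632 with DMSO and of 7007, 7789 and 8082 with blebbistatin. In the Y27632 table the DMSO counts of Aspn were 7230, 6953 and 6892 and the Y27632 counts 11249, 11185 and 11619. The lowest blebbistatin library stood just above the highest DMSO library, whereas the Y27632 libraries stood far above it. Aspn rose by 0.17 with blebbistatin (SE 0.047, limma adjusted p = 0.00847) and by 0.69 with Y27632 (SE 0.031, adjusted p = 5.24e-09), a gain of 61.6%. The difference between the inhibitors, -0.51 for blebbistatin minus Y27632, passed the threshold (edgeR, adjusted p = 2.68e-07).

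Lum encodes lumican, a keratan sulfate proteoglycan that binds fibrils at the same stretch of collagen as fibromodulin. Its counts were 4808, 4934 and 4663 with DMSO and 6606, 6574 and 6490 with blebbistatin. Those of the Y27632 table were 4998, 5122 and 4846 with DMSO and 8615, 8283 and 8678 with Y27632. Neither inhibitor's libraries overlapped the DMSO libraries, and the blebbistatin libraries were close to each other. Lum rose by 0.45 with blebbistatin (SE 0.032, limma adjusted p = 1.52e-07) and by 0.77 with Y27632 (SE 0.033, adjusted p = 3.55e-09), that is by 36.6% and 70.9%. With Y27632 it had the largest rise among the 9 genes, and 95.5% of all genes tested changed by less in either direction. It was lower with blebbistatin than with Y27632 by -0.31 (edgeR, adjusted p = 8.22e-07).

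Fmod encodes fibromodulin, which is abundant in tendon and takes part in the early assembly of fibrils and in cross-linking. It stood at 2714, 2550 and 2531 normalised counts with DMSO and at 3019, 3347 and 2900 with blebbistatin. In the other table it stood at 2821, 2648 and 2630 with DMSO and at 4131, 4306 and 4337 with Y27632. Both inhibitors gave counts above all DMSO libraries, with the Y27632 libraries the farther away. Fmod rose by 0.25 with blebbistatin (SE 0.051, limma adjusted p = 0.0014) and by 0.66 with Y27632 (SE 0.037, adjusted p = 3.47e-08). The direct difference was -0.39 (edgeR, adjusted p = 7.1e-06).

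Prelp encodes a basic, chain-poor member that can link basement membranes to the collagen beneath. It had 18124, 18384 and 17865 normalised counts with DMSO and 13604, 13829 and 13693 with blebbistatin. Beside Y27632, DMSO gave 18842, 19085 and 18565 and Y27632 gave 17827, 17489 and 17715. The libraries of each group lay close together, blebbistatin far below DMSO and Y27632 slightly below it. Prelp fell by 0.40 with blebbistatin (SE 0.028, limma adjusted p = 1.25e-07), a change of -24.4%. It fell by 0.09 with Y27632 (SE 0.028, adjusted p = 0.0212), a change of -6.12%, and this call was lost without DMSO library 2 (adjusted p = 0.0866), Y27632 library 2 (0.0703) or Y27632 library 3 (0.053), with changes of -0.08 to -0.09. The inhibitors differed by -0.30 (edgeR, adjusted p = 2.66e-07).

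Omd encodes osteomodulin, also called osteoadherin, a keratan sulfate proteoglycan best known from bone. It had few reads, 104, 113 and 76 in the DMSO libraries. Its normalised counts were 103, 125 and 87.3 with DMSO and 64.4, 66.6 and 73.5 with blebbistatin. In the Y27632 table they were 107, 129 and 90.7 with DMSO and 138, 143 and 145 with Y27632. DMSO lay between the inhibitors without touching either, although its own 3 libraries were spread more widely than those of the treated groups. Omd fell by 0.60 with blebbistatin (SE 0.153, limma adjusted p = 0.00529) and rose by 0.39 with Y27632 (SE 0.132, adjusted p = 0.0348). The rise rests on few reads: its adjusted p was 0.102 with DESeq2, and without 1 library it was 0.0763 (DMSO 1), 0.132 (DMSO 3), 0.0639 (Y27632 1), 0.0826 (Y27632 2) or 0.0906 (Y27632 3), at log2 changes of 0.26 to 0.41. Without DMSO library 2 the change was 0.52 (adjusted p = 0.00972). The direct difference, -0.99 with a 95% interval from -1.27 to -0.70 (edgeR, adjusted p = 2.33e-05), passed the threshold under every alternative run.

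Ogn encodes osteoglycin, also called mimecan, of the class with fewer repeats, which affects fibril width. Its normalised counts were 7163, 7159 and 6725 with DMSO and 4506, 5070 and 4513 with blebbistatin. The counts in the Y27632 table were 7446, 7432 and 6988 with DMSO and 8633, 9199 and 9367 with Y27632. Every blebbistatin library was below, and every Y27632 library above, all DMSO libraries. Ogn fell by 0.58 with blebbistatin (SE 0.047, limma adjusted p = 4.93e-07), a change of -33.1%, and rose by 0.31 with Y27632 (SE 0.038, adjusted p = 3.22e-05), a gain of 24.4%. Between the inhibitors it differed by -0.88 (edgeR, adjusted p = 1.98e-09). With Omd it makes 2 of the 9 genes that were called in opposite directions against the shared DMSO libraries and called between the inhibitors, a pattern that 4.10% of 14678 genes tested in all 3 comparisons had.

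Podn encodes podocan, a member of a separate class that binds collagen and slows smooth muscle growth. Its counts were 215, 264 and 279 with DMSO and 281, 287 and 258 with blebbistatin. With Y27632 they were 152, 138 and 171, where DMSO in that table had 224, 274 and 290. Blebbistatin and DMSO overlapped, and all Y27632 libraries were below all DMSO libraries. The log2 change with blebbistatin was 0.13 with a 95% interval from -0.09 to 0.35 and did not pass the threshold (limma, adjusted p = 0.304). Podn fell by 0.77 with Y27632 (SE 0.115, adjusted p = 0.000202), a loss to 0.588 of its DMSO level, and 95.4% of all genes tested changed by less in either direction. It was the 1 gene of the 9 that was higher with blebbistatin than with Y27632, by 0.92 (edgeR, adjusted p = 6.01e-06).

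Set directly against each other, the inhibitors gave a difference in 8 of the 9 genes (edgeR), where 53.1% of 14955 genes tested differed. Podn was higher and Bgn, Fmod, Lum, Omd, Ogn, Prelp and Aspn were lower with blebbistatin, where 26.9% of all genes were called higher and 26.2% lower. The median difference of the 9 was -0.31 on the log2 scale, beside 0.0053 for all genes, and the median absolute difference was 0.39 beside 0.22. Omd, Podn and Ogn had larger absolute differences than 94.4%, 93.5% and 92.9% of all genes tested, and Dcn than 5.72%. The doses were 10 µM and 30 µM, and both comparisons with DMSO share their 3 DMSO libraries.

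**Figure D2:**
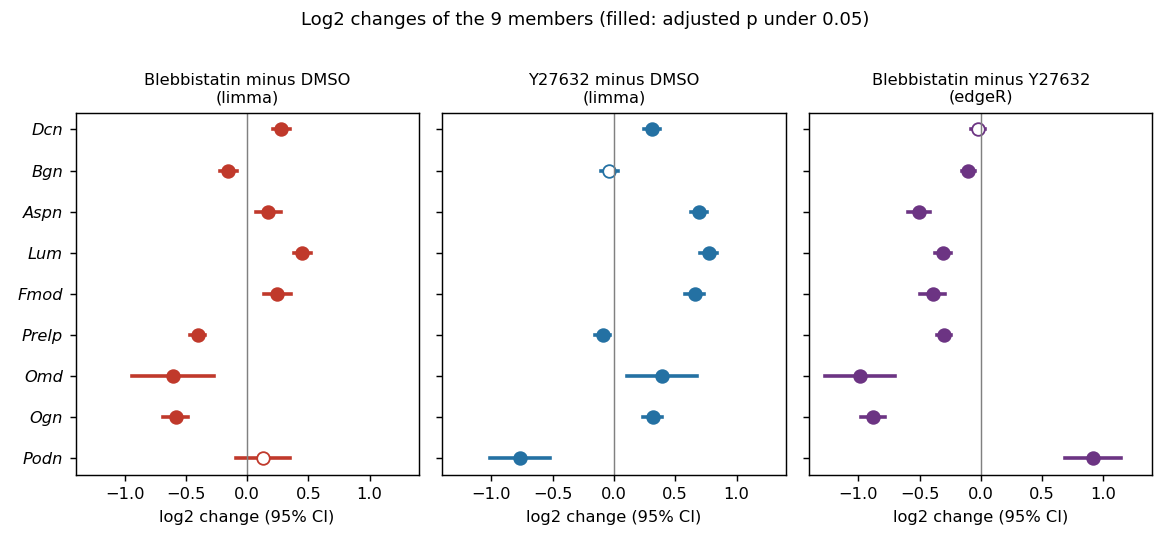
Log2 changes of the 9 genes with 95% confidence intervals in the comparisons of blebbistatin with DMSO, of Y27632 with DMSO (limma, 3 libraries against 3) and of blebbistatin with Y27632 (edgeR). Filled circles have an adjusted p under 0.05. Omd and Ogn lie left of 0 with blebbistatin and right of 0 with Y27632, and in the third panel Podn alone lies right of 0.

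The other genes of the family were measured as well. Kera (keratocan), downstream of Lum, rose by 0.54 with blebbistatin and by 1.05 with Y27632, and Epyc (epiphycan), at the end of that cluster, changed by -0.09 with blebbistatin (limma, adjusted p = 0.254) and rose by 0.42 with Y27632 (adjusted p = 4.33e-05). Thus Dcn, Lum and Kera rose under both inhibitors, and Epyc under one. Ecm2, first of the chromosome 13 cluster, rose by 0.61 and 0.54. Along that stretch the log2 changes with blebbistatin ran 0.61, 0.17, -0.60 and -0.58 for Ecm2, Aspn, Omd and Ogn, and with Y27632 0.54, 0.69, 0.39 and 0.31. On chromosome 1, Optc (opticin) lies 0.616 kb from Prelp and had mean counts of 55.9 ± 3.42 with DMSO and 37.6 ± 9.85 with blebbistatin (SD, n = 3). Optc fell by 0.59 with blebbistatin (limma, adjusted p = 0.0279), a call lost under 6 alternatives, among them DESeq2 (0.109) and leaving out DMSO library 1 (0.0857) or 2 (0.0611) or blebbistatin library 2 (0.0714) or 3 (0.103), and by 0.63 with Y27632 (adjusted p = 0.0103, DESeq2 0.0643). Fmod, 107.2 kb beyond Prelp, rose in both.

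**Figure D3:**
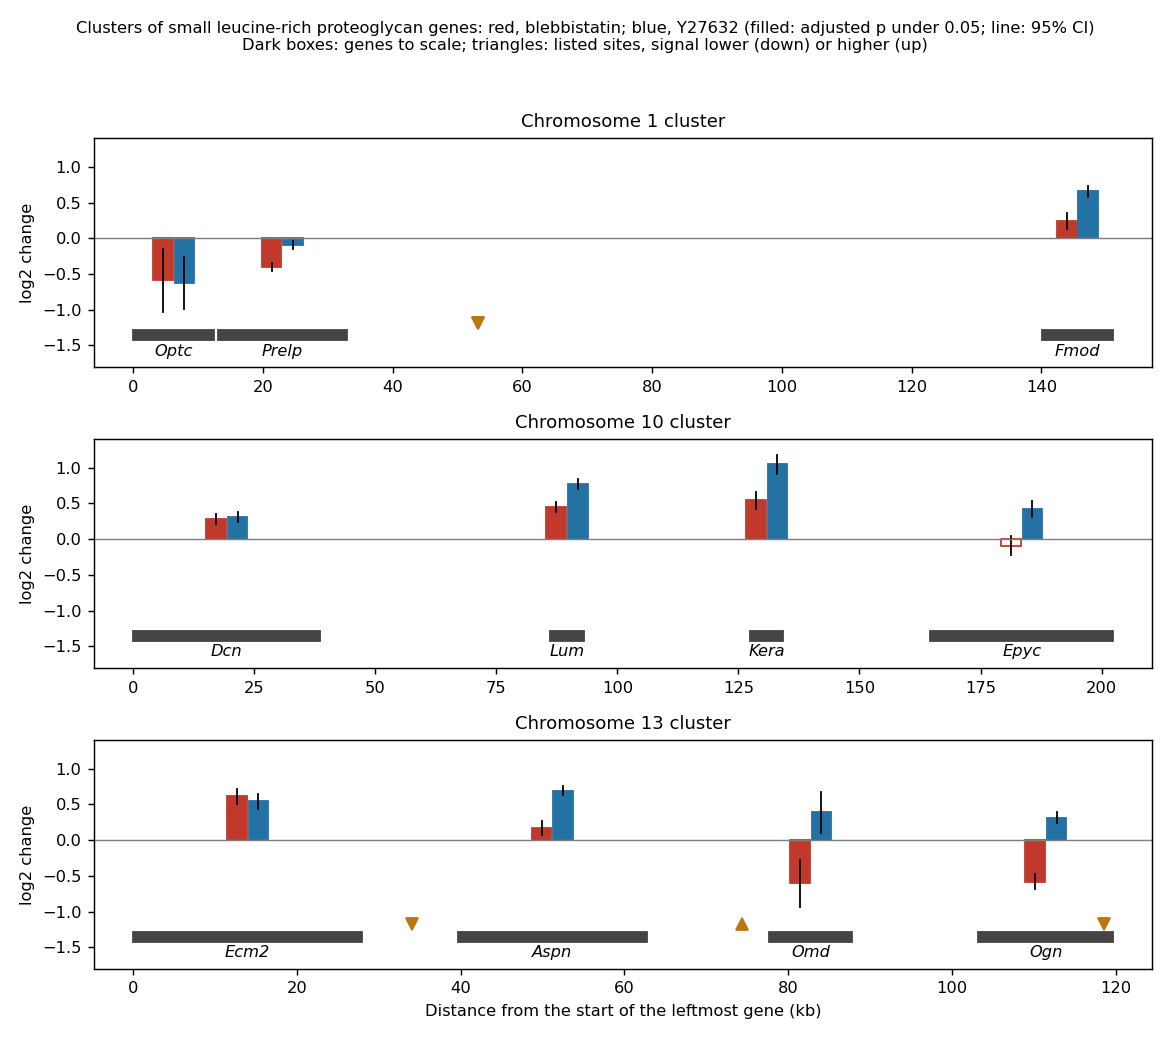
The 3 gene clusters drawn to scale, with distance from the start of the leftmost gene in kb on the x axis and log2 change against DMSO on the y axis. Red bars are blebbistatin, blue bars Y27632, lines the 95% intervals, open bars changes that did not pass the threshold, dark boxes genes, and triangles sites from the authors' lists with lower (down) or higher (up) signal. All called changes in the chromosome 10 cluster are rises, and the 2 genes on the right of the chromosome 13 cluster have bars on both sides of 0. Triangles on chromosome 1 are for blebbistatin without doxycycline. On chromosome 13 the up triangle is for doxycycline against neither drug, and the down triangles are for blebbistatin in the presence of doxycycline.

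Outside the clusters, Tsku (tsukushi) fell by 0.70 with blebbistatin and changed by 0.01 with Y27632 (limma, adjusted p = 0.798), and Podnl1, the relative of Podn, fell by 0.74 and 0.79. Podn and Podnl1 thus had log2 changes of 0.13 and -0.74 with blebbistatin and of -0.77 and -0.79 with Y27632. Chad (chondroadherin), at a mean count of 15.8 with DMSO, did not pass the threshold with either inhibitor (adjusted p = 0.457 and 0.235). Nyx (nyctalopin), at a mean of 8.93 with overlapping groups, had a log2 change of 1.32 with blebbistatin at an adjusted p of 0.0498, and it was too low to be tested with Y27632. That call was lost under 10 alternatives, among them leaving out DMSO library 1 (0.0865) or 3 (0.171, log2 change 0.68) or blebbistatin library 1 (0.0659), 2 (0.0644) or 3 (0.167). In all, 6 of these 8 genes were called with blebbistatin, 3 in each direction, and 5 of 7 with Y27632, 3 higher and 2 lower, beside 53.0% and 35.9% of all genes. The 6 include Optc and Nyx, whose calls were lost under 6 and 10 alternatives. Podnl1 overlaps Cc2d1a, Chad overlaps Acsf2 and Epyc overlaps the noncoding Gm10754 in the annotation, so reads could be shared.

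Among enzymes that build the sugar chains, genes were called in both directions, and several of the counts lie near the shares of all genes called higher and lower, 26.1% and 26.9% with blebbistatin and 18.1% and 17.8% with Y27632. Of 7 genes for the linker that joins chain to core protein, 4 rose and 1 fell with blebbistatin and 4 rose with Y27632 (limma). Pxylp1, the phosphatase that releases the linker for extension, rose by 0.76 and 0.24. Of 15 chondroitin and dermatan sulfate genes tested, 4 rose and 7 fell with blebbistatin and 2 rose and 5 fell with Y27632. Chst15, which adds a second sulfate, rose by 1.42 and 0.88, and Chst7, a 6-O-sulfotransferase, fell by 1.08 and 0.51. Chst11, the main 4-O-sulfotransferase, rose by 0.99 with blebbistatin and changed by 0.15 with Y27632 (adjusted p = 0.143), while Csgalnact1, which starts the chain, fell by 0.88 and changed by 0.02 (adjusted p = 0.689). Chsy3, a chain polymerase, fell by 0.74 and 0.40. For keratan sulfate and tyrosine sulfate, carried by Lum, Fmod, Omd and their kin, 2 of 5 genes rose and 2 fell with blebbistatin, and 1 rose and 3 fell with Y27632. Chst2 rose by 0.31 and 0.63, and Chst1, which sulfates galactose in keratan sulfate, changed by 0.19 with blebbistatin (adjusted p = 0.144) and fell by 0.67 with Y27632. Of 6 genes that supply activated sulfate, 4 fell with blebbistatin, and with Y27632 2 rose and 2 fell, with Papss1, a synthase of the sulfate donor, lower by -0.60 and -0.37.

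Counts for partners of the 9 proteins are to be read beside the 53.0% of all genes called with blebbistatin and the 35.9% with Y27632. Of 13 collagen genes of the fibril and its surface, 3 rose and 6 fell with blebbistatin and 4 rose and 3 fell with Y27632 (limma). Col6a3 rose by 0.63 and 0.46, and Col11a1, a chain of thin early fibrils, fell by 0.52 with blebbistatin and changed by -0.02 with Y27632 (adjusted p = 0.763). Of 14 ligands, receptors and other proteins listed as partners, 6 rose and 5 fell with either inhibitor. Bmp4, a growth factor, fell by 2.07 and 0.66. Wisp1, a matricellular protein that binds decorin and biglycan, fell by 1.32 and 0.64. Tgfb2 rose by 1.16 and 0.32, and Tlr2, a receptor for free biglycan, by 0.85 and 0.16, the second call being lost with DESeq2 (adjusted p = 0.109) and without DMSO library 1 (0.0722), 2 (0.0517) or 3 (0.0706) or Y27632 library 2 (0.128) or 3 (0.065). Of 10 proteases and related genes that cut members of the family or help in it, 6 rose and 3 fell with blebbistatin and 6 rose and 4 fell with Y27632. The matrix metalloproteinase genes Mmp13, Mmp3 and Mmp14 rose by 3.83, 1.81 and 1.18 with blebbistatin and by 2.63, 0.99 and 0.31 with Y27632, while Adamts5 and the tolloid protease Tll1 fell by 1.79 and 1.19 and by 0.56 and 0.50. Over these lists and those of the preceding paragraph, median log2 changes lay between -0.24 and 0.34 with blebbistatin and between -0.24 and 0.21 with Y27632. All genes tested had medians of 0.0021 and 0.0040.

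**Figure D4:**
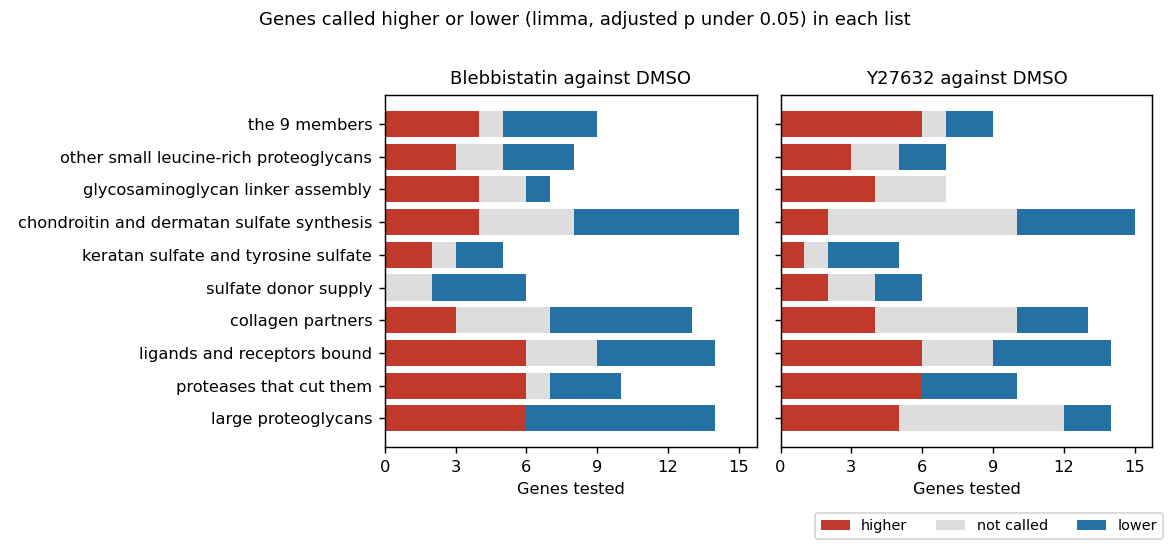
Number of genes tested in each list (x axis) that were called higher (red), lower (blue) or neither (grey) against DMSO by limma at an adjusted p under 0.05, for blebbistatin (left) and Y27632 (right). The 9 genes had 4 higher and 4 lower with blebbistatin and 6 higher and 2 lower with Y27632.

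For each of the 9, the genes with the most similar course over the 9 RNA libraries were sought among 11465 genes with a mean of at least 100 reads, by the root mean square difference of centred log2 CPM. Dcn was closest to Timp2, a metalloproteinase inhibitor (0.0283), Bgn to Ddx1 (0.0161), Prelp to Fstl1 (0.0213) and Lum to Lrrn4cl (0.0352). Aspn was closest to Per1 (0.0410) and Sik1 (0.0560), Ogn to Marcks (0.0598) and Fam102b (0.0642), and Fmod to Chst2 (0.0582) and Pik3r1 (0.0711). Omd and Podn, with fewer reads, had more distant neighbours, Ptprd (0.0830) for Omd and Chst1 (0.115) for Podn. Within the 9, Fmod and Aspn were each other's nearest, at rank 9 among all genes from either side (0.0868), and so were Omd and Ogn (0.113), at rank 13 from Omd and 30 from Ogn. Bgn and Prelp were also each other's nearest (0.11), but only at rank 4116 from Bgn and 1579 from Prelp. For Lum the nearest other member was Fmod (0.104), at rank 21. The nearest other member of Dcn, by contrast, was Fmod at rank 4701, and that of Podn was Bgn at rank 5572.

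Each of the 5 site lists held 0 to 2 sites annotated to the 9 genes. The share of all genes with a site is given beside each count. The authors' deposited tables hold group means on a log2 scale, with no value per library, so no error or test was computed and the sites below are theirs at an FDR of at most 0.05. With ATAC and blebbistatin, 1 of 970 listed sites was annotated to 1 of the 9 genes, Prelp, while 3.54% of the genes tested in RNA had a site. In the authors' deposited table it lies at chr1:133950287-133950387 (mm10), between genes and 28.94 kb upstream of the Prelp start that their annotation used. Prelp, on the minus strand, reaches to position 133930102 in the RefSeq gene table, nearer to the site. The site's signal was 5.75 with DMSO and 4.27 with blebbistatin, a log2 fold of -1.48 (FDR 0.0266), with no TEAD motif listed. An overlapping site, chr1:133950270-133950407, is in the authors' deposited table for blebbistatin without doxycycline, where the signal went from 5.69 to 4.64, a log2 fold of -1.06 (FDR 0.0194). It was 1 of 1231 sites there, with 4.43% of genes having one. Prelp transcripts were lower with blebbistatin too, as given above, and the link between site and gene rests on the annotation alone. Of these lists, 953 of 970 and 1219 of 1231 sites had lower signal with blebbistatin, so a lower site is the usual case.

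None of the 207 sites of the Y27632 ATAC list was annotated to the 9 genes, where 0.860% of genes had a site. In the doxycycline experiment, the authors' deposited table of doxycycline against neither drug has 1 such site among 7613, at chr13:49579044-49579180, at -3350 bp from the start of Omd and in an intron of Cenpp, with a signal of 3.5 without and 5.02 with doxycycline, a log2 fold of 1.52 (FDR 0.00297). A site in that list was held by 24.9% of genes. For blebbistatin in the presence of doxycycline, the authors' deposited table has 2 among 6346 sites, where 17.9% of genes have one. The Aspn site, chr13:49538824-49538965, lies at -5548 bp from the start of Aspn in an intron of Cenpp, and the authors' deposited table gives 5.76 without and 4.54 with blebbistatin, a log2 fold of -1.21 (FDR 0.000849). The Ogn site, chr13:49623331-49623520, lies in the untranslated part of the last exon, 15411 bp from the start, with 5.35 and 4.33, a log2 fold of -1.03 (FDR 0.00234) in the authors' deposited table. No listed site was annotated to Dcn, Bgn, Lum, Fmod or Podn, and none lay in the chromosome 10 cluster, which does not show that their chromatin was unaltered, since the lists hold only sites past the authors' thresholds. Sites at 2 other genes of the family were lower with blebbistatin under doxycycline in the authors' deposited table: one 12.21 kb upstream of Ecm2 (log2 fold -1.03) and one 29.32 kb upstream of Tsku (-1.14), the latter with a log2 fold of 1.35 for doxycycline itself.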

How the data were processed

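RNA values are a signal that the authors deposited, counts divided by 1 size factor per library, scaled separately in the 2 tables. Per the submitters' processing notes, HISAT2, featureCounts, DESeq2, Bowtie2, MACS2, DiffBind and HOMER were among the tools and mm10 was the build, while the roles, versions, strand setting and annotation are not given in the sources used here. Of the values, 100% were whole multiples of 1 step per library, to within 0.1 reads, which gave back whole reads, identical for DMSO in both tables (0 values differed). Dates had replaced 25 gene names in either file. The site lists hold log2 group means and folds and FDR values (adjusted p-values) that the authors deposited, with annotated distances as another value, and every site value in the text is theirs. The reference column of the doxycycline list is headed as the group with blebbistatin alone. At 13 sites that share coordinates with the list for blebbistatin alone, it lay -0.13 (SD 0.0044) on average from the group with neither drug and 1.12 (SD 0.184) from the headed group, so it was read as neither drug.

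The main test was limma 3.58.1 (R 4.3.3, with trend), applied to log2(normalised count + 1) for genes averaging 10 or more normalised counts, with no replicate block. Fold changes are on this scale, in which the added 1 draws ratios of low counts toward no change, and for scarce genes they can differ either way from a count model (Nyx with blebbistatin was 1.32 here and 1.14 with edgeR). Blebbistatin and Y27632 were set against each other with the quasi-likelihood test of edgeR 4.0.16 after TMM scaling, using whole reads from 9 libraries and genes averaging 10 or more reads. Adjusted p-values are Benjamini-Hochberg values over all genes tested, and genes under 0.05 were called. Replicate pairs differed by more than sampling noise from sequencing 1 library again would give (chi-square per degree of freedom 2.63 to 8.06). None was therefore treated as a repeat of another, and all were kept. The members and the gene lists were chosen with earlier results of these data known, and the lists support nothing about direction. Of each list, the text names at most 5 genes, those called with an absolute log2 change of at least 0.5 and a mean normalised count of at least 100 under either inhibitor. Some genes that meet the rule are not reported here. All 8 further family members are named, and the most similar genes are the nearest 1 or 2 of each member. Alternatives were other pseudocounts, filters, scalings and tests, each library left out and a replicate block.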

Additional observations from a re-analysis of the deposited data

How the results depend on the processing

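Of 386 values of the 9 genes under alternatives, 376 kept their direction and side of the threshold, 0 reversed and 10 lost their call, all of them Omd or Prelp with Y27632. Of 1271 values of the other named genes, 1226 were the same, 32 lost and 5 gained a call and 8 changed sign. Leaving out each library in turn, 6994 to 7394 genes were called with blebbistatin, 4304 to 4839 with Y27632 and 7166 to 7985 between the inhibitors, and 8, 6 to 7 and 8 of the 9. DESeq2 called 6612, 4109 and 6882 genes. Same-numbered libraries did not deviate together (correlations -0.12 to 0.07). This check, with 3 libraries per group, cannot show whether the numbers pair them. With the number as a replicate block, 7604, 4633 and 7700 genes and 8, 7 and 8 of the 9 were called, Prelp with Y27632 being lost (adjusted p = 0.0747). Sign changes came from values near 0 when 1 library was left out: with Y27632, Tsku ranged from -0.016 to 0.045 (-0.0012 without DMSO 2), Csgalnact1 from -0.014 to 0.042 and Col11a1 from -0.088 to 0.023 (0.0014 without Y27632 1), and between the inhibitors Optc ranged from -0.16 to 0.18 (-0.0021 without Y27632 3) and Podnl1 from -0.017 to 0.13. At an FDR of at most 0.01, 0 sites of the 9 genes remained in the ATAC blebbistatin list and 0 in the list of blebbistatin without doxycycline. The Prelp site has an FDR of 0.0266 in the first list and 0.0194 in the second. A limit of 100 kb changed no site count. Omd and Podn had the fewest reads of the 9, which limits their precision, and the depth behind the sites is unknown.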

Other observations

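Proteoglycans outside the small leucine-rich family were measured in the same libraries. All 14 tested were called with blebbistatin (limma), 6 higher and 8 lower, and 7 with Y27632, 5 higher and 2 lower, beside 53.0% and 35.9% of all genes tested. Their median log2 change was -0.17 with blebbistatin and 0.07 with Y27632. Gpc4, a glypican held at the cell surface, fell by 0.60 with blebbistatin and by 0.23 with Y27632.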
